A study of Mus musculus with 61 samples.

Results

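The GFPP-48 and GFPN-48 arrays were compared together with the cultures named IL27-48 and ctrl-48, 1 Affymetrix Mouse430A_2 array under each of these 4 names, out of 61 arrays in all and 9 of that array type. The 4 were found by their titles, and all come from T cells of C57BL/6 mice read at 48 h; the titles give times as bare numbers, taken here as hours. No label says what GFPP and GFPN stand for or describes a sort. The names read like a GFP-positive and a GFP-negative fraction, and the word fraction is used here for these 2 arrays only in that sense. A single protocol text is attached to every array, control arrays included: IL-27 at 25 ng/ml, an antibody to CD3 and a second antibody, both at 1 µg/ml, and 6 µg of total RNA. The source label calls the cells of all 4 arrays Tr1 cells. The labels therefore do not say by which cytokine the fractions and ctrl-48 differ, and the arms were taken from the titles alone. Nothing in the labels tells whether the 4 arrays came from 1 culture, from parallel cultures or from different mice.

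IL-27 is a cytokine of the IL-12 family that signals through the receptor chains IL-27Rα and gp130. In CD4 T cells it is known to induce interferon-type genes and, through STAT3, genes such as Socs3, Bcl3 and Il21. Together with T cell receptor stimulation it turns naive cells into type 1 regulatory (Tr1) cells, which make IL-10 without Foxp3 and limit inflammation.

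Of 12285 genes on the array, 6773 lay above the array's median on at least 1 of the 4 arrays and were compared; a gene that passed only through a group where it was bright had to differ, so counts are read against those over all 6773. Differences are on the log2(intensity + 32) scale, where 1 is 2-fold and dim genes are understated. A gene agreed when both fractions differed from the same unsorted array in the same direction, and its agreed difference is the smaller of the 2. Both differences use the same unsorted array, so an odd reading on that array shifts both, and agreement is not a replicate. With 1 array per name there is no test, and no p-value is given for these arrays.

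Both fractions lay close to IL27-48 and far from ctrl-48. GFPP-48 read at least 2-fold above IL27-48 in 51 genes (0.753% of those compared) and below it in 28 (0.413%), and GFPN-48 in 22 (0.325%) and 23 (0.34%). Against ctrl-48 the counts were 215 genes higher (3.17%) and 167 lower (2.47%) for GFPP-48, and 160 higher (2.36%) and 145 lower (2.14%) for GFPN-48. The genes in which both fractions agreed numbered 21 above IL27-48 (0.31%) and 18 below it (0.266%), against 153 above ctrl-48 (2.26%) and 131 below it (1.93%). Beyond both unsorted arrays lay 13 genes on the high side (0.192%) and 10 on the low side (0.148%). The median difference over all genes was between -0.03 and 0.00 in each of the 4 comparisons. For scale, HT_MG-430A arrays that share an arm and a time in this series, 16 pairs on the other array type, differed by 2-fold in either direction in 0.0% to 2.416% of genes, with a median of 0.622%. Counted in the same way, the shares against IL27-48 (1.17% for GFPP-48 and 0.664% for GFPN-48) lie within that range. Those against ctrl-48 (5.64% and 4.5%) lie above it. The top of the range was a pair at 8 h. Pairs at 42 and 54 h differed in 0.307% and 0.447% of genes for IL27 and in 0.098% and 0.182% for ctrl. All 4 shares lie above these.

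The cells on all 4 arrays read as T cells. All 9 measured T cell markers were above the median, with a summed intensity of 41609 on ctrl-48, 43896 on IL27-48, 47129 on GFPP-48 and 45883 on GFPN-48. Cd4, the helper T cell co-receptor, read 1224, 819, 1004 and 1004 in that order. Cd8a, of the CD8 co-receptor, stayed between 23.9 and 30.7, though Cd8b1 read 448, 242, 216 and 177. Of 10 B cell markers only Ighm, the IgM heavy chain, was above the median (4383, 2541, 2987 and 2853), and Cd79a, Ms4a1 and Pax5 did not pass 28 on any array. Among 16 myeloid and dendritic markers 4 passed (Ctss, Cst3, Mpeg1 and Csf1r); the list summed to 4473 on ctrl-48 and 2591 to 2745 on the other 3, while Lyz2, Itgam, Cd14 and S100a8 stayed under 24. No erythroid marker passed, with sums of 117 to 127. The natural killer list summed to 98.8, 168, 362 and 201, which came mainly from Klrd1, a CD94 chain that T cells also make (23.7, 60.9, 229 and 86.4). In bulk RNA fewer cells of a type and less RNA per cell cannot be told apart, and the part of other cells in any difference was not tested.

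Several genes that define Tr1 cells were too dim to compare. Il10, the cytokine that defines Tr1 cells, read 20.2 on ctrl-48, 23 on IL27-48, 22.2 on GFPP-48 and 20.6 on GFPN-48, under the array median of 74.3 to 78.2 on each. Maf, a factor that drives Il10, and the Tr1 surface markers Itga2, Havcr2 and Entpd1 were likewise below the median on all 4 arrays. GFP itself was not analysed here.

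Genes higher in both fractions than in IL27-48 included some that IL27-48 already held above ctrl-48, some that were alike on both unsorted arrays, and interferon-inducible genes that were lower on IL27-48 than on ctrl-48. Plac8, a small cysteine-rich protein, read 62.6 on ctrl-48, 2542 on IL27-48, 8477 on GFPP-48 and 7901 on GFPN-48. It had the largest agreed difference from IL27-48 on the high side (1.62) and was the one gene that also passed 3-fold. The fractions stood above IL27-48, and IL27-48 far above ctrl-48. Sgk1, a serum- and glucocorticoid-inducible kinase, followed the same order with 35.4, 261, 1135 and 831 (agreed difference 1.56). Hlx, a homeobox factor linked to Th1 cells, did so too with 20.3, 137, 539 and 311 (1.02), as did Gstt1, a glutathione transferase, with 38.1, 241, 599 and 517 (1.01).

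Glrx, glutaredoxin, which reduces protein-glutathione disulphides, read 426, 619, 3109 and 1739 in the order ctrl-48, IL27-48, GFPP-48 and GFPN-48 (agreed difference 1.44). Ecm1, a secreted matrix protein that helps helper T cells leave lymph nodes, read 102, 204, 562 and 637 (1.33). Il7r, the IL-7 receptor chain that is lost on activation and returns in resting cells, read 232, 378, 1045 and 817 (1.05). In these 3 genes both fractions lay above both unsorted arrays, which were nearer to each other. The same held for Pglyrp2, a peptidoglycan amidase (28.7, 70.9, 311 and 209), Tlr1, a receptor for bacterial lipopeptides (172, 210, 553 and 491), Sema4a, a semaphorin (162, 266, 816 and 592), and Xdh, xanthine dehydrogenase (109, 153, 556 and 353). Ubd, a ubiquitin-like protein, was dim on both unsorted arrays (28.6 and 25.4) and read 133 and 110 in the fractions. Pglyrp2 and Ubd were above the array median in the fractions alone, so they had to be higher there.

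Socs2, a feedback inhibitor of cytokine receptors, read 1284 on ctrl-48, 893 on IL27-48, 3067 on GFPP-48 and 2599 on GFPN-48. Both fractions were above IL27-48 (agreed difference 1.51), and GFPN-48 lay just under 2-fold over ctrl-48 (0.9993). Of the other SOCS genes Socs3, the STAT3-driven inhibitor of gp130, read 665, 5756, 5018 and 4933, high with IL-27 and alike on IL27-48 and both fractions. At the threshold against IL27-48, Gstt1, Gbp10 and Hlx lay just inside with agreed differences of 1.01, 1.01 and 1.02, and Zbp1, Ccl5 and Prdm1 just outside with 0.97, 0.97 and 0.96.

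**Figure D1:**
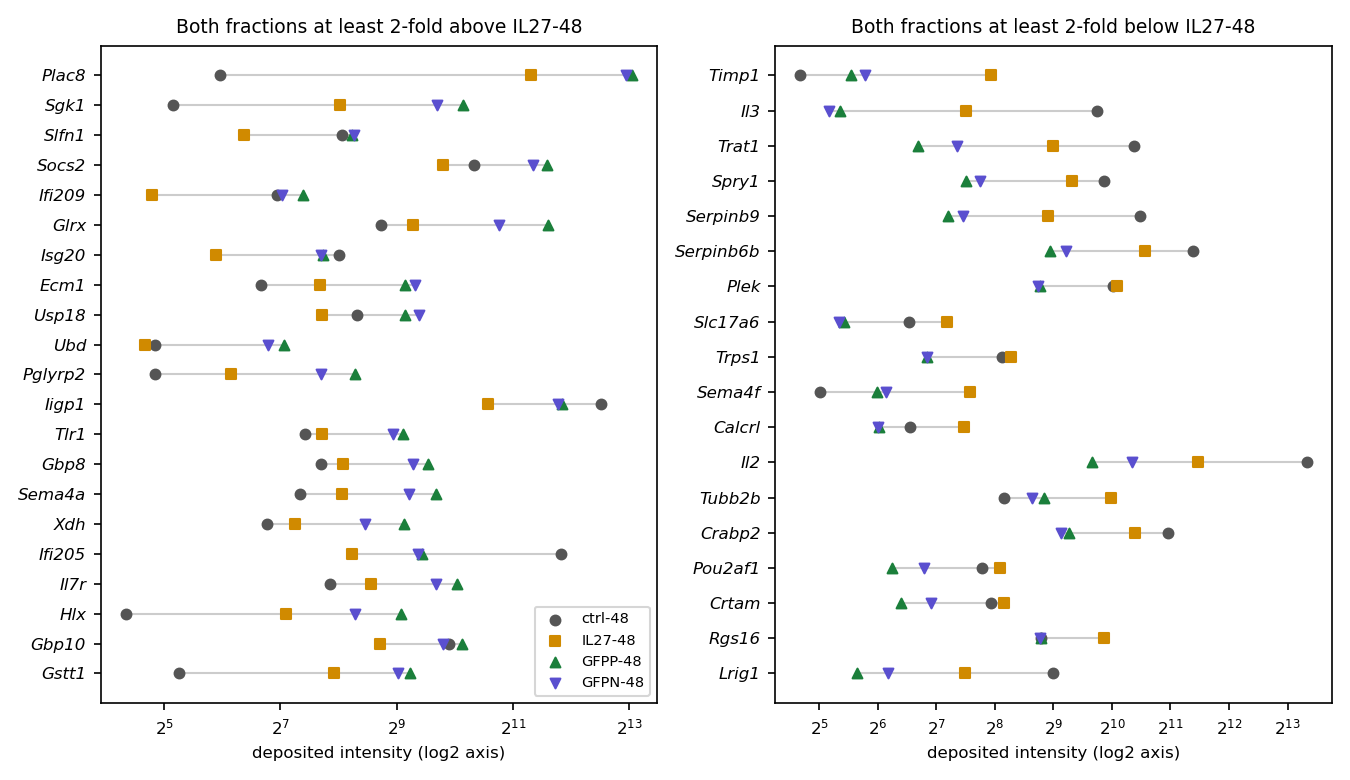
Deposited intensity (log2 axis) of the 21 genes that both fractions held at least 2-fold above IL27-48 (left) and the 18 they held below it (right), 1 point per array for ctrl-48 (circle), IL27-48 (square), GFPP-48 (up triangle) and GFPN-48 (down triangle). In 13 of the genes at left both triangles lie at least 2-fold above both unsorted arrays, while for Iigp1, Ifi205 and Isg20 they lie between IL27-48 and ctrl-48.

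Interferon-inducible genes mostly read higher in both fractions than on IL27-48, and against ctrl-48 they lay on either side. The IRG and GBP genes encode GTPases that interferon induces and that attack the vacuoles of intracellular microbes. All 10 that were measured were above IL27-48 on both fractions, 3 of them past 2-fold (Iigp1, Gbp8 and Gbp10), with median differences of 1.10 on GFPP-48 and 0.89 on GFPN-48 beside 0.00 over all genes. Of all genes compared, 40.8% were above IL27-48 on both fractions by any amount and 42.6% below it, and 0.31% were above it by 2-fold. Against ctrl-48, 4 of the 10 were above on both fractions and 4 below, near the 41.8% and 48.3% of all genes. The medians were 0.13 and -0.06, and IL27-48 itself was below ctrl-48 by a median of -0.60. Iigp1 read 5813 on ctrl-48, 1527 on IL27-48, 3659 on GFPP-48 and 3497 on GFPN-48. Ifi47 read 9911, 4335, 8885 and 8326, and Irgm1, an IRG regulator, 1280, 354, 665 and 663. The fractions lay between both unsorted arrays for these 3 genes. Gbp8 (208, 272, 744 and 623) and Gbp3 (279, 385, 904 and 735) instead lay above both.

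Among 17 other interferon response genes measured, 13 were above IL27-48 on both fractions and 2 below, with medians of 0.51 and 0.52. Of all genes, 40.8% were above and 42.6% below, and 0.31% were above by 2-fold. Past 2-fold were Usp18, the protease that removes ISG15 from proteins and damps the interferon receptor (319 on ctrl-48, 209 on IL27-48, 566 on GFPP-48 and 672 on GFPN-48), and Isg20, an RNA exonuclease (258, 59.1, 213 and 208). Not every member followed. Ifih1, the RNA sensor MDA5, read 1047, 336, 271 and 282, below ctrl-48 by 1.78 or more on the log2 scale in both fractions, and Bst2, which tethers budding viruses, read 1364, 817, 798 and 813. Ifi27l2a was intermediate at 5370, 1564, 2191 and 2517. Outside the lists, the schlafen gene Slfn1 (267, 83.1, 302 and 307) and the Ifi200 genes Ifi209 (122, 27.7, 168 and 131) and Ifi205 (3627, 300, 690 and 658) were also above IL27-48 in both fractions.

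The low IL27-48 level of these genes rests on 1 array, and the arrays named IL27-48 and ctrl-48 on HT_MG-430A, also 1 each, did not show it for all of them. The difference IL27-48 minus ctrl-48 was -0.54 for Usp18 on Mouse430A_2 and 0.53 on HT_MG-430A, and -1.37 and 0.21 for Ifi209. For Slfn1 it was -1.38 and -0.21, and for Isg20 -1.67 and -1.39. Socs2 likewise read -0.51 and 0.90. Over 6773 genes the differences on the 2 array types correlated with r = 0.384, a description across genes, which are not independent replicates. A limma fit used more HT_MG-430A arrays, 5 per arm at 42 to 54 h. There IL27 minus ctrl was -0.55 ± 0.57 (SE) for Socs2, -0.35 ± 0.13 for Ifi209 and -0.53 ± 0.18 for Slfn1. It was -0.74 ± 0.14 for Isg20 and 0.09 ± 0.20 for Usp18.

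In MHC class I antigen presentation, which interferons also induce, 11 of 12 genes were above IL27-48 on both fractions and none passed 2-fold (medians 0.33 and 0.34). Of all genes, 40.8% were above IL27-48 on both fractions. Tapbp, tapasin, which loads peptides onto class I molecules, read 2035, 1081, 1913 and 1724, and Psmb10, an immunoproteasome subunit, 1544, 971, 1398 and 1364. Irf1, the interferon regulatory factor that drives many of these genes, read 1987 on ctrl-48, 1026 on IL27-48, 1987 on GFPP-48 and 1757 on GFPN-48.

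Promoter stretches are shown for IRG and GBP genes because these were above IL27-48 as a group and because promoters of interferon-induced genes are known for the sites of STAT and IRF factors. The windows run from 250 bases before to 50 after each RefSeq gene start (GRCm38.p6), and 19 of the 27 measured interferon, IRG and GBP genes have one. A repeat of GAAA, GAAANNGAAA, which is the core of an interferon-stimulated response element, was found on either strand in 13 of the 19 (68.4%), against 3.99% of all 27025 genes with a window and 3.44% of all 32851 windows. TTCNNNGAA, the palindrome that STAT dimers bind, was in 8 of the 19 (42.1%), against 9.55% of genes and 8.3% of windows. The motifs overlapped each other in 24 windows. Both lists were known as interferon targets when they were chosen, and a match in the letters is no sign of binding. Of all 21 genes above IL27-48, 15 have a window and 3 of these held the GAAA repeat (20.0%), and 4 the STAT palindrome (26.7%). The 3 with the repeat were Gstt1, Ifi205 and Sgk1. Iigp1, Gbp8 and Gbp10, the IRG and GBP genes past 2-fold, have no window, and Usp18 has none either. The genes printed below were thus not past 2-fold in both fractions. The 3 measured IRG and GBP genes whose windows hold both motifs are printed for the last 150 bases before the start, 5′ to 3′ on the gene's strand, with the motifs in capitals.
Gbp7 (chr3:142530186-142530335, plus strand): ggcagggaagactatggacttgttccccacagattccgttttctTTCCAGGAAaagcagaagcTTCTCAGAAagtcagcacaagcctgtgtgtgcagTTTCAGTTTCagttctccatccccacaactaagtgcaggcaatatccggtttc
Igtp (chr11:58199406-58199555, plus strand): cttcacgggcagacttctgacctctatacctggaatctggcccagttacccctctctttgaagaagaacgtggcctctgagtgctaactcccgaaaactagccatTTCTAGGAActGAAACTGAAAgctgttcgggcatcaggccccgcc
Irgm2 (chr11:58214827-58214976, plus strand): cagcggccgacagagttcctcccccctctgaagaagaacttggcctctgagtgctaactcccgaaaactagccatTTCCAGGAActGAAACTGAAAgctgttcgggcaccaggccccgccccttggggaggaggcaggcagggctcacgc
The GAAA repeat begins 53 bases before the start in Gbp7, where it lies on the opposite strand, 34 in Igtp and 64 in Irgm2. Igtp and Irgm2, which lie near each other on chromosome 11, share a run of 38 identical bases in the stretches shown, and in both the STAT palindrome lies just upstream of the repeat. On the arrays Gbp7 read 1250 on ctrl-48, 950 on IL27-48, 2722 on GFPP-48 and 1799 on GFPN-48, and it was above IL27-48 by at least 0.90. Irgm2 (456, 254, 432 and 406) and Igtp (6172, 4551, 6354 and 6118) were above IL27-48 in both fractions by smaller amounts, 0.62 and 0.42 at the least.

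Several of the genes lower in both fractions than in IL27-48 were also lower on IL27-48 than on ctrl-48. Il3, a growth factor of activated T cells, read 860 on ctrl-48, 182 on IL27-48, 41.1 on GFPP-48 and 35.8 on GFPN-48 (agreed difference -1.55). Il2, the main T cell growth factor, read 10282, 2841, 804 and 1302 (-1.11). Trat1, an adaptor that stabilises the T cell receptor complex, read 1325, 508, 103 and 163 (-1.47). In these 3 genes IL27-48 was already below ctrl-48 and both fractions lay lower again. Spry1, a feedback inhibitor of receptor signalling (935, 636, 182 and 215), Lrig1, a negative regulator of growth factor receptors (507, 179, 50 and 72.6), and the serpins Serpinb9, which inhibits granzyme B (1425, 480, 147 and 175), and Serpinb6b (2673, 1506, 490 and 591) had the same order.

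The remaining genes below IL27-48 were not lower on IL27-48 than on ctrl-48, Crabp2 apart. Timp1, an inhibitor of matrix metalloproteinases, read 25.6 on ctrl-48, 243 on IL27-48, 46.4 on GFPP-48 and 54.8 on GFPN-48, and its agreed difference of -1.67 was the largest on the low side. It was bright on IL27-48 alone. Sema4f (32.1, 191, 63.4 and 70.5) and Tubb2b, a tubulin (285, 1015, 459 and 399), were also highest on IL27-48. Timp1 and Sema4f were above the array median on IL27-48 alone, so they had to be lower in the fractions. When a gene had to pass the median on 2 of the 4 arrays, 16 of the 18 genes below IL27-48 remained. Plek, pleckstrin (1035, 1089, 438 and 427), Trps1, a zinc finger factor (279, 311, 115 and 115), and Crtam, an adhesion receptor of cytotoxic T cells (245, 286, 84.0 and 120), were alike on the unsorted arrays and low in both fractions. Crabp2, which binds retinoic acid, read 1999, 1347, 616 and 560. Further members were Slc17a6, Pou2af1, Rgs16 and Calcrl, and in Calcrl 1 of 2 probe sets showed no such difference. Lrig1, Rgs16 and Crtam lay just inside 2-fold (-1.01, -1.02 and -1.07), with Pter, Galnt3 and Prxl2a just outside (-0.97, -0.95 and -0.94).

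Il2, Il3 and Spry1 belong to the list of genes induced through the T cell receptor. Of its 23 members measured, 17 were below IL27-48 on both fractions and 4 above, where 42.6% and 40.8% of all genes were. At least 2-fold below were 3 (Il2, Il3 and Spry1), beside 0.266% of all genes. The medians were -0.41 on GFPP-48 and -0.31 on GFPN-48. Nr4a1, an orphan receptor whose level follows T cell receptor signalling, read 4676 on ctrl-48, 2696 on IL27-48, 1778 on GFPP-48 and 1874 on GFPN-48. Nr4a2, its close relative, read 397, 199, 122 and 123, and Egr2, an early growth response factor, 1089, 1272, 666 and 864. Not all members went down: Icos, a co-stimulatory receptor, read 1404, 1604, 2623 and 2233, and Tnfrsf4 (OX40), 8048, 6940, 7916 and 7640. Against ctrl-48, 11 of the 23 were at least 2-fold lower in both fractions and none higher, beside 1.93% and 2.26% of all genes. Of all 131 genes below ctrl-48, 30 were above the median on ctrl-48 alone. The 11 list members were not split in that way.

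Against IL27-48, medians of growth-related lists other than histone genes were nearer to 0. Of 33 ribosome biogenesis genes, 23 were below IL27-48 on both fractions and 5 above, with medians of -0.20 and -0.10. Below ctrl-48 were 32, none past 2-fold, with medians of -0.47 on GFPP-48 and -0.34 on GFPN-48. Of all genes, 42.6% were below IL27-48 on both fractions and 40.8% above, and 48.3% were below ctrl-48. Nolc1, a nucleolar chaperone, read 3730, 2838, 1847 and 2522, and Ltv1, which helps export the small ribosomal subunit, 2580, 2304, 1589 and 1719. Of 24 cholesterol and lipid synthesis genes, 18 were below IL27-48 and 22 below ctrl-48 on both fractions. Their medians were -0.18 and -0.14 against IL27-48, and -0.53 and -0.54 against ctrl-48. Past 2-fold against ctrl-48 were 4 of them (Idi1, Hsd17b7, Scd1 and Fads2), beside 1.93% of all genes. Idi1, an isomerase of the mevalonate pathway, read 3758, 2198, 1379 and 1409, and Scd1, a fatty acid desaturase, 1186, 878, 480 and 466. Of 7 histone genes 6 were above IL27-48 on both fractions (medians 0.51 and 0.33), beside 40.8% of all genes. H1f4, a linker histone, read 82.3, 35.5, 89.4 and 84.1. Cytosolic ribosomal protein, oxidative phosphorylation, DNA replication and mitosis genes had medians within 0.08 of 0 on both fractions against both unsorted arrays, and none of these genes passed 2-fold in both.

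**Figure D2:**
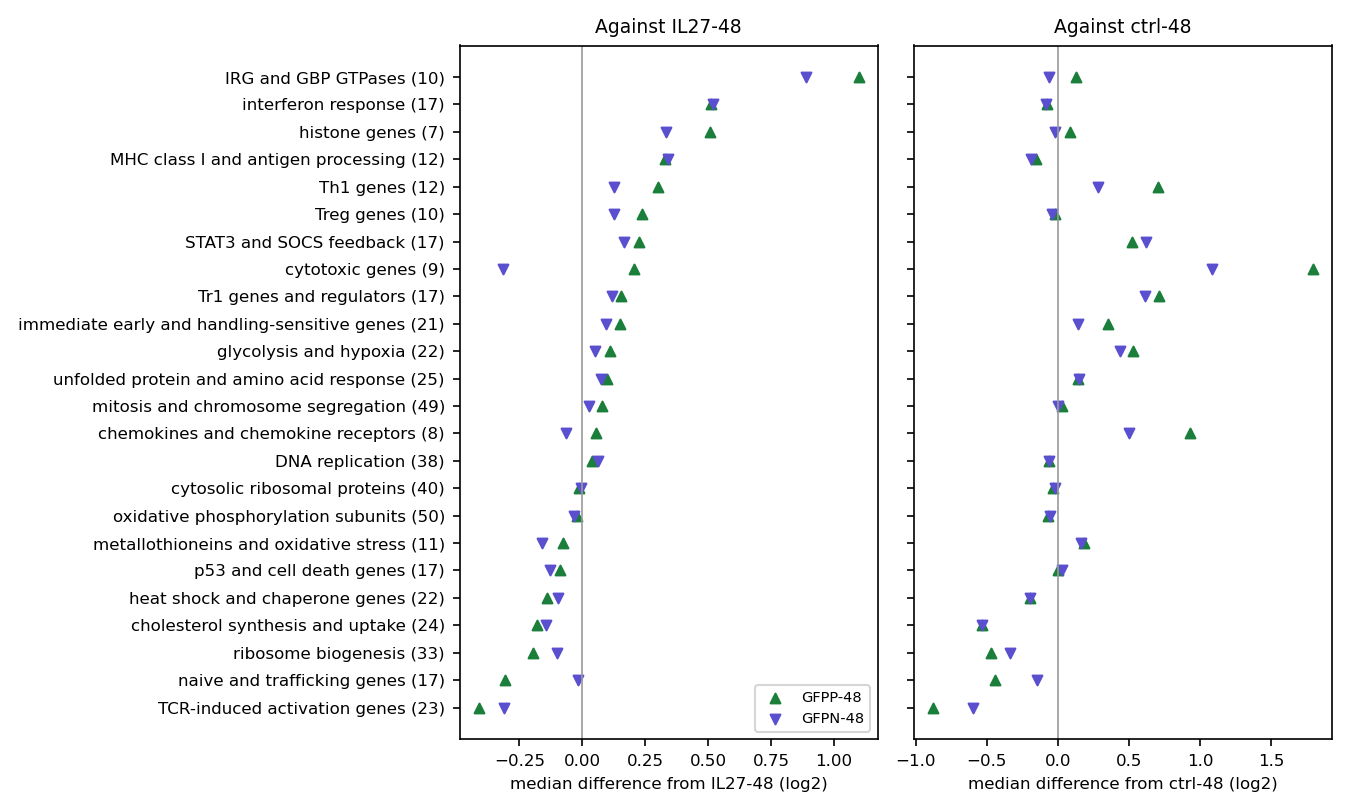
Median log2 difference of each gene list (number of genes measured in brackets) for GFPP-48 (up triangle) and GFPN-48 (down triangle), against IL27-48 at left and ctrl-48 at right, for lists with at least 5 genes measured. IRG and GBP genes sit farthest right against IL27-48 (1.10 and 0.89) but near 0 against ctrl-48, and genes induced through the T cell receptor sit at -0.41 and -0.31 against IL27-48 and at -0.88 and -0.59 against ctrl-48.

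Against ctrl-48 both fractions carried the genes that IL-27 raises. Plac8 led with an agreed difference of 6.39. Ctla2a, an inhibitor of cathepsin L-like proteases, read 46.4 on ctrl-48, 3236 on IL27-48, 6392 on GFPP-48 and 5758 on GFPN-48 (6.21). Il21, an autocrine growth factor of Tr1 cells, read 28.4, 2218, 2143 and 2172 (5.17). The step from ctrl-48 to the other 3 arrays was large in these genes, and Il21 was alike on those 3. Gadd45g, a stress sensor that promotes interferon-gamma production, read 236, 2336, 4846 and 4330 (4.02), and Selp, P-selectin, 62.3, 1046, 1391 and 1759 (3.92). Also among the 12 largest were Frmd4b, the serpin Serpinb5, Ctla2b, Gpm6b, the cathepsin Ctsw (67.3, 540, 1012 and 872) and Tgm2, transglutaminase, which read 1330, 10484, 15001 and 14560. All of the 12 but Gadd45g and Tgm2 were under the median on ctrl-48, so they entered only through arrays where they were high. Probe sets of a gene disagreed in size: agreed differences ran from 0.00 to 3.79 over the 6 of Tgm2, from 0.74 to 3.77 over the 3 of Serpinb5, from 0.98 to 3.80 over the 4 of Frmd4b, and the 2 of Selp and of Gpm6b gave 2.51 and 3.92, and 1.74 and 3.48.

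On the low side against ctrl-48 the largest agreed differences were in Lad1 (3208 on ctrl-48, 78.2 on IL27-48, 39.8 on GFPP-48 and 56.8 on GFPN-48; -5.19) and in Tnfsf11, the RANK ligand (2142, 65.3, 42.7 and 34.6; -4.86). Fasl, the Fas death ligand, read 509, 71.3, 24.1 and 23.7 (-3.27). Cd83, a surface protein of activated lymphocytes, read 424, 24.8, 21.9 and 22.5 (-3.07), and Csf2, GM-CSF, 427, 39.1, 28.1 and 28.6 (-2.92). The second probe set of Tnfsf11 gave -2.06 and that of Fasl -2.10. Il3, Il2, Serpinb9, Ifitm2 (1694, 333, 215 and 186), Trat1, the BAFF receptor gene Tnfrsf13c (442, 64.4, 37.5 and 45.9) and Cd44, an adhesion receptor of activated cells (2988, 818, 415 and 532), made up the rest of the 12. Tnfsf11, Fasl, Cd83, Csf2 and Tnfrsf13c were above the median on ctrl-48 alone, so they entered the comparison through the array where they were high; this holds for 30 of the 131 genes below ctrl-48.

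**Figure D3:**
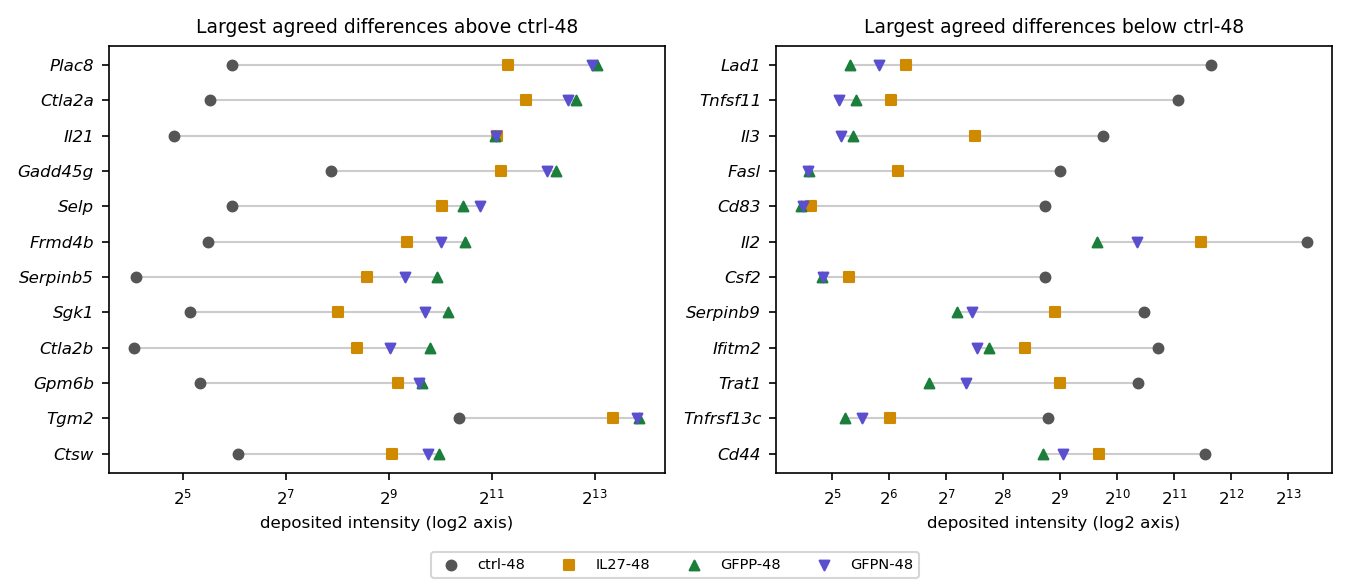
Deposited intensity (log2 axis) of the 12 genes with the largest agreed difference above ctrl-48 (left) and below it (right), 1 point per array with the symbols of each array named in the legend. IL27-48 lies on the side of the fractions in all 24 genes; Il21 reads 28.4 on ctrl-48 and 2143 to 2218 on the other 3 arrays.

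Among Tr1 genes and their regulators, 17 were measured. Of these, 7 were at least 2-fold above ctrl-48 on both fractions and 2 below, beside 2.26% and 1.93% of all genes. None passed 2-fold against IL27-48 on both. The 7 were Il21, Prdm1, Nfil3, Gzmb, Lag3, Ctla4 and Ahr. Of these, Il21, Prdm1 and Ahr were under the median on ctrl-48, so they entered only through arrays where they were high. Prdm1, the repressor Blimp-1 that supports Il10, read 19.3 on ctrl-48, 122 on IL27-48, 573 on GFPP-48 and 267 on GFPN-48, and Nfil3, a further Il10 regulator, 235, 976, 1549 and 1201. Ahr, the aryl hydrocarbon receptor, went against this order: 37.0, 362, 116 and 188, so both fractions were above ctrl-48 but below IL27-48. Gzmb, granzyme B, read 4002, 17446, 21677 and 17569, and the inhibitory receptors Lag3 and Ctla4 481, 853, 1486 and 1209, and 1926, 4022, 5559 and 4364. The 2 lower genes were Eomes, a T-box factor (360, 45.6, 42.7 and 61.0), and Pdcd1, the receptor PD-1 (984, 438, 230 and 230). Eomes was above the median on ctrl-48 alone, so it had to be lower elsewhere. Batf (809, 1022, 1018 and 1021) and Tbx21 (910, 832, 1068 and 964) were nearly level.

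Of the 17 genes of the STAT3 and SOCS list, 3 were at least 2-fold above ctrl-48 in both fractions: Il21, Socs3 and Bcl3, a nuclear IκB protein (291, 1606, 2342 and 2153). Beside this and the counts that follow, 2.26% of all genes were 2-fold above ctrl-48 in both fractions and 1.93% below. In the cytotoxic list 5 of 9 were above and 2 below (Fasl and Serpinb9); Prf1, perforin, read 31.4, 245, 452 and 191, and Nkg7, a granule membrane protein, 728, 2843, 2605 and 1936. Glycolysis and hypoxia genes had 3 of 22 above and none below: the glucose transporter Slc2a3 (1490, 3838, 5198 and 4689), Egln3, a prolyl hydroxylase of HIF (2315, 6988, 7611 and 7134), and Bnip3 (2208, 5020, 5549 and 5165). Both metallothioneins were above ctrl-48, with Mt1 at 389, 3700, 3846 and 2935. Within the naive and trafficking list 5 of 17 were above ctrl-48 and 2 below. Klf2, a factor that keeps T cells quiescent and recirculating, read 60.2, 146, 307 and 311, while the lower ones were Id3, an inhibitor of E proteins (1268, 439, 129 and 250), and Ccr7, the lymph node homing receptor (6988, 3844, 2559 and 3327). Among genes named here, Il21, Prf1 and Klf2 were under the median on ctrl-48 and entered only through arrays where they were high. Fasl was above it on ctrl-48 alone.

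Of the helper lineage lists, Th17 had 3 genes measured and Th2 1. The counts that follow stand beside 2.26% of all genes above ctrl-48 and 1.93% below it by 2-fold in both fractions. Of 12 Th1 genes 3 were at least 2-fold above ctrl-48 in both fractions, namely Hlx, the IL-12 receptor chain Il12rb2 (210, 762, 876 and 864) and the chemokine receptor Cxcr3 (58.0, 286, 234 and 305), and 1 was below (Fasl). Ifng, interferon-gamma, read 442, 462, 877 and 376, so the fractions did not agree. Ccl5, a chemokine that attracts T cells, read 363, 296, 1444 and 609. Of 10 Treg genes Ctla4 was above and Nrp1, neuropilin, below (133, 40.8, 30.7 and 29.0). Nrp1 and Fasl were above the median on ctrl-48 alone, so they had to be lower elsewhere. Hlx and Cxcr3 were under it on ctrl-48 and entered only through arrays where they were high. Cd74, the MHC class II invariant chain, read 372, 106, 92.1 and 100, while H2-Ab1, a class II chain, read 152, 324, 374 and 337.

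Genes that respond to handling of cells are given because separation takes time, although no label describes one. Of 21 immediate early genes none passed 2-fold against IL27-48 in both fractions, and the medians were 0.15 and 0.09. Jun, an AP-1 subunit, read 230 on ctrl-48, 305 on IL27-48, 527 on GFPP-48 and 500 on GFPN-48, and Atf3, a stress factor, 663, 228, 117 and 153. Against ctrl-48, 4 were higher in both fractions (Jun, Zfp36, Ier3 and Socs3) and 2 lower (Klf6 and Atf3), beside 2.26% and 1.93% of all genes. Heat shock and chaperone genes had 16 of 22 below IL27-48 on both fractions, none past 2-fold, with medians of -0.14 and -0.10. Of all genes, 42.6% were below IL27-48 on both fractions. Hspa1b, the heat-inducible HSP70, read 102, 75.5, 65.9 and 72.3. The part of handling in the differences was not tested.

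Lists chosen on other arrays were read on the same 4 arrays, where their members still had to pass the filter on dim genes. On 10 HT_MG-430A arrays at 42 to 54 h, 5 per arm at 3 times, limma called 48 genes at least 2-fold higher with IL-27 (0.725% of 6622 tested) and 50 at least 2-fold lower (0.755%) at an adjusted p under 0.05. Whether any of these RNAs also went onto the Mouse430A_2 arrays was not stated. All 48 raised genes were above ctrl-48 on both fractions, 41 of them by 2-fold on both, and IL27-48 itself was 2-fold above ctrl-48 in 40. Of all genes, 2.26% were 2-fold above ctrl-48 on both fractions and 1.93% below. Members under the median on ctrl-48, such as Il21 (28.4) and Serpinb5 (17.2), passed the filter only through arrays where they were high. All 48 passed it, and without a filter the count by 2-fold was also 41. The median difference from ctrl-48 was 2.02 on IL27-48, 2.25 on GFPP-48 and 1.97 on GFPN-48, beside -0.02 to -0.03 over all genes. Of the 50 lowered genes 48 were measured; all 48 were below ctrl-48 on both fractions and 43 by 2-fold on both, with medians of -1.45, -1.80 and -1.80 in the same order. However, 16 of the 48 were above the median on ctrl-48 alone and so had to be lower elsewhere; of the 32 above it on 2 or more arrays, 28 were 2-fold below ctrl-48 on both fractions.

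Set against IL27-48, these lists shifted less. The raised genes had medians of 0.35 on GFPP-48 and 0.23 on GFPN-48. Above IL27-48 on both were 28 and below it 11, beside 40.8% and 42.6% of all genes. Plac8 and Sgk1 passed 2-fold upward and Sema4f downward. Sema4f was above the median on IL27-48 alone, so it had to be lower in the fractions. Plac8 had been raised by 4.08 ± 0.37 (SE, 5 arrays per arm, limma adjusted p = 5.87e-05) on the HT_MG-430A arrays and Sgk1 by 1.28 ± 0.21 (0.00368). For the lowered genes the medians were -0.23 and -0.21, 32 were below IL27-48 on both and 8 above. Il3, Il2 and Trat1 passed 2-fold downward. Ifi205 and Iigp1 passed it upward, against the direction of IL-27 in which they were listed (-2.47 ± 0.24 and -1.03 ± 0.28).

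**Figure D4:**
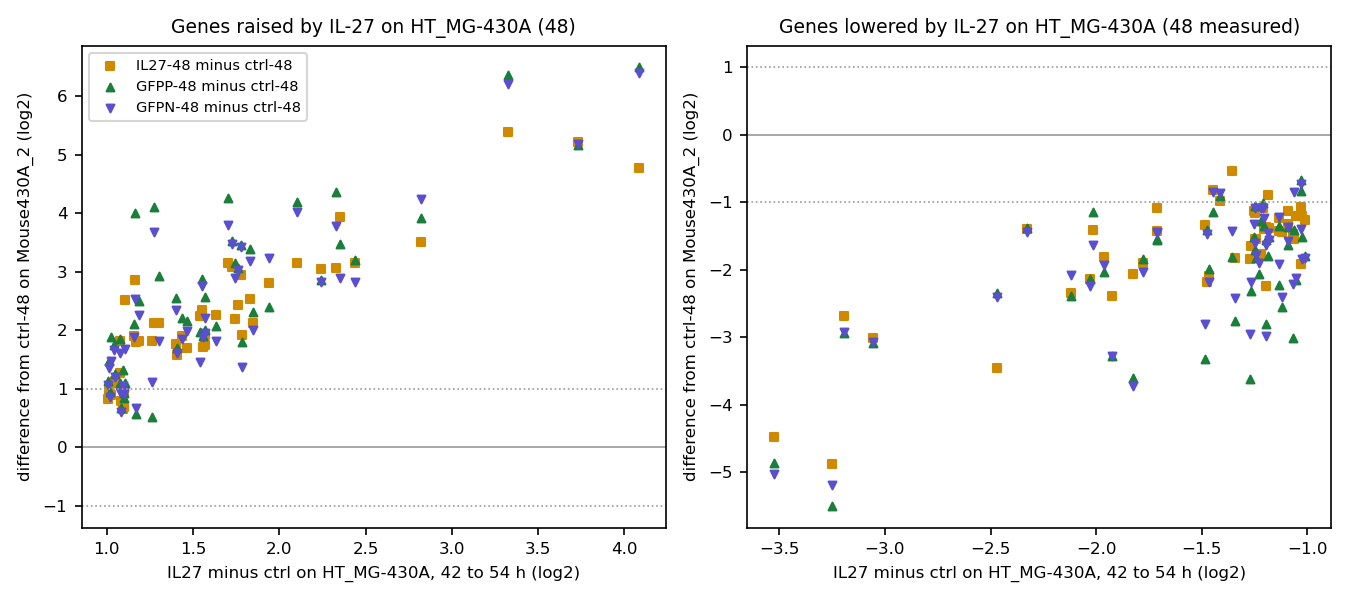
Genes called raised (left, 48) or lowered (right, 48 measured of 50) by IL-27 on HT_MG-430A arrays at 42 to 54 h: log2 difference there (horizontal) against the log2 difference from ctrl-48 on Mouse430A_2 (vertical) for IL27-48 (square), GFPP-48 (up triangle) and GFPN-48 (down triangle), 1 array each. Every triangle at left lies above 0 and every one at right below it; dotted lines mark 2-fold.

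The genes that set both fractions apart from IL27-48 were also followed on arrays that did not enter those differences. These looks were added after the values had been seen. The brightest probe set of a gene was picked over all 9 Mouse430A_2 arrays, so ctrl-0 and ctrl-16 did enter that choice. On Mouse430A_2, ctrl-0 was at least 2-fold above ctrl-16 in 16 of the 21 genes above IL27-48 and below it in 1 (Socs2), while over all genes 1068 (15.8%) were above and 1163 (17.2%) below. The median was 2.24 for the 21 and -0.03 for all genes. Il7r read 10931 on ctrl-0 and 73.9 on ctrl-16, Sgk1 2300 and 46.3, Slfn1 2334 and 284, and Ecm1 518 and 119. These genes were thus high at the time labelled 0, low at 16 h and higher in the fractions than in IL27-48. Of the 18 genes below IL27-48, 4 were 2-fold higher on ctrl-0 than on ctrl-16 and 6 lower, among them Il2 (31.9 and 6878), Spry1 (54.5 and 2253) and Crabp2 (19.0 and 1245).

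Within the IL27 arm on HT_MG-430A, 3 arrays at 60 to 72 h were compared with 5 at 42 to 54 h by limma, which called 1076 genes higher (15.9% of 6750) and 1243 lower (18.4%). Of the genes above IL27-48 in both fractions, 20 were in this fit, with 9 called higher later and 2 lower (Gbp10 and Iigp1), and a median of 0.87 beside -0.01 over all genes. Ecm1 was higher later by 2.63 ± 0.49 (SE; limma adjusted p = 0.011), Glrx by 1.81 ± 0.43 (0.014) and Il7r by 1.79 ± 0.43 (0.015). Iigp1 went the other way, with a difference of -1.66 ± 0.43 (0.018). Of the 18 genes below IL27-48, none was called higher later and 6 lower (Il2, Il3, Serpinb9, Trps1, Crabp2 and Crtam), with a median of -0.55. Il2 fell by 3.47 ± 0.55 (limma adjusted p = 0.011) and Il3 fell by 2.18 ± 0.43 (limma adjusted p = 0.011).

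**Figure D5:**
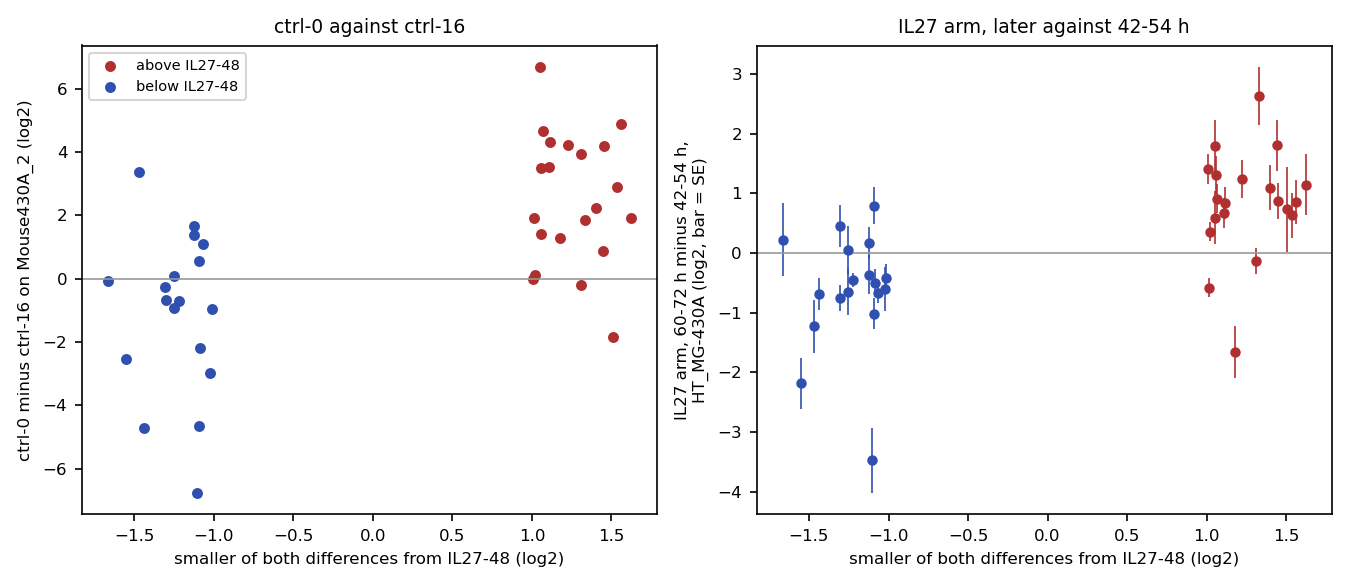
Genes at least 2-fold above (red, 21) or below (blue, 18) IL27-48 in both fractions: the smaller of both log2 differences (horizontal) against the log2 difference between ctrl-0 and ctrl-16 on Mouse430A_2, 1 array each (left), and against the IL27 arm's change from 42-54 h (5 arrays) to 60-72 h (3 arrays) on HT_MG-430A, with the SE as bar (right; Ubd was not in that fit). The red points lie mostly above 0 in both panels, with medians of 2.24 and 0.87.

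How far single genes can differ between arrays of one name was read from the 16 HT_MG-430A pairs. The agreed difference exceeded the gene's own largest difference in such a pair in 9 of the 21 genes above IL27-48 (Gbp10, Glrx, Gstt1, Hlx, Pglyrp2, Sema4a, Sgk1, Ubd and Usp18) and in 7 of the 18 below (Calcrl, Crtam, Sema4f, Serpinb6b, Spry1, Trps1 and Tubb2b). Il2, Il3, Trat1 and Timp1 did not exceed it, nor did Plac8, Il7r and Ecm1. Against ctrl-48, 135 of 153 genes above and 112 of 131 below exceeded it. All these genes were chosen for differences of at least 2-fold, which itself favours exceeding it, and the share over all genes was not counted. Calcrl exceeded it narrowly, at -1.12 against 1.10 in a pair, and its second probe set gave -0.03. Sema4f entered the comparison through IL27-48 alone, where it was high, and so had to be lower in the fractions. Pglyrp2 and Ubd entered through the fractions alone and had to be higher there. Ubd says little here, since it was near the floor on HT_MG-430A (9.0 and 11.5 at 48 h) and could hardly differ in a pair. These pairs come from the other array type and include times with fast change, so they set a scale and not a test.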

How the data were processed

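Each array type has 1 deposited table of linear intensity values over 22626 probe sets. MAS5 is the only tool given in the submitters' processing notes, without a version; the authors' background and scaling settings were not stated. Array medians on Mouse430A_2 were 70.7 to 78.9, so the deposited intensity was taken as normalized by the authors and not scaled again; array types were kept apart. Probe sets with 1 gene in the platform annotation (20173; 942 had several and 1511 none) were used, the brightest per gene. Values were compared as log2(intensity + 32). Genes above the array median on 1 of the 4 arrays were kept. The HT_MG-430A fits used limma 3.58.1 in R 4.3.3 on genes above the median on at least 5 of 10 arrays (3 of 8 for the later times), with time as a factor in the first, Benjamini-Hochberg adjustment, and were tested on simulated data. No label says that an arm's arrays are separate cultures or mice, so limma's p-values rest on array-to-array spread that may be purely technical. The text names the 12 genes each way with the largest agreed difference per comparison, further list members and markers; the members and lists were chosen with earlier results of these data known. Genes of the agreed sets named beyond those 12 were chosen after their values were seen. Promoter sequences are from RefSeq, GRCm38.p6. Python 3.11.15 was used with pandas 2.3.3. The number of arrays limits the precision.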

Additional observations from a re-analysis of the deposited data

How the results depend on the processing

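Quantile normalization, no filter on dim genes and the mean over all probe sets of a gene kept every count within 1.5 times of the reported one. The pseudocount moved the small sets most: with a pseudocount of 1 instead of 32, 34 genes were above IL27-48 and 28 below, and 21 above and 19 below both unsorted arrays; with 100, 8 were above and 8 below IL27-48, 4 above both unsorted arrays, 101 above ctrl-48, and limma called 26 genes raised and 27 lowered on HT_MG-430A. At 3-fold, 1 gene was left above and 1 below IL27-48, 1 above and 0 below both unsorted arrays, and 60 above and 51 below ctrl-48. Of the genes lowered on HT_MG-430A, 25 were 3-fold below ctrl-48 in both fractions, and 28 were 2-fold below when a gene had to pass the median on 2 of the 4 arrays. Leaving out each of the 10 HT_MG-430A arrays in turn gave 43 to 60 raised and 44 to 58 lowered genes, and the title suffix d as a block 49 and 51. Over 425 recomputed differences of named genes none changed sign, and 63 moved by more than the spread of 1 array. Most of these could not change sign, because filters and pseudocounts cannot reverse the difference of a given probe set. A gene with 1 probe set also keeps its value under the mean. Genes named in several comparisons were counted more than once. No paired analysis was possible because the 4 arrays carry no replicate number. With 1 array per name no array could be left out, and levels near the array floor bound what can be seen.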
